A study of Homo sapiens with 4 samples.

Results

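Matrix metalloproteinases (MMPs) and their tissue inhibitors (TIMPs) were followed at the RNA level in OVCA420, an established epithelial ovarian cancer cell line, over 7 days of TGF-β1. The members were 10 of the 33694 genes in the count tables, matched by gene symbol: the proteases MMP1, MMP2, MMP7, MMP9, MMP10, MMP13 and MMP14 and the inhibitors TIMP1, TIMP2 and TIMP3. Droplet single-cell RNA-seq of transcript 3′ ends was available for 4 libraries, all of OVCA420 with no genetic change named in the labels: an untreated control (Ctrl) and cells given 10 ng/mL TGF-β1 for 1 day (1-day), 3 days (3-day) or 7 days (7-day). Each condition was 1 library, so no statistical test was possible, no p-value is given, and every difference below is one between single libraries. The intervals are 95% intervals of counting error only. They do not hold the spread between cultures.

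MMPs are zinc-dependent endopeptidases that are made as inactive precursors and that cleave collagens, laminins, fibronectin and many cell surface proteins. TIMPs bind the active site of MMPs and block it, and TIMP2 also takes part in activation, because it bridges the precursor of MMP2 to MMP14 at the cell surface. In epithelial tumours, TGF-β is known as an inducer of several of these proteases while cells acquire mesenchymal features. RNA levels do not measure how much of a protease is secreted, activated or bound by its inhibitor.

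After filtering, 3144 cells entered the analysis, between 569 and 937 per library, with 25382817 to 32949874 unique molecular identifiers (UMIs, each counting 1 captured RNA molecule) per library. They came from the first 3170 of the 10710 cells listed, in barcode order, and the other cells were not analysed here. The median cell held 30270 UMIs in Ctrl, 32393 at 1-day, 43553 at 3-day, then 43382 at 7-day, so shares of positive cells were also computed with cells thinned to 18000 UMIs. Thinning left out the shallower cells, which numbered 89 in Ctrl, 37 at 1-day, 28 at 3-day, then 20 at 7-day. The share of cells scored as G1 was 25.0%, 77.9%, 46.5% and 36.4% in the same order, and the median mitochondrial share was 8.31%, 7.42%, 6.22% and 6.26%. All 5 epithelial markers were detected in every library, with at least 2 of them in every cell. The 4 ovarian carcinoma markers MUC16, PAX8, WFDC2 and MSLN summed to only 0.467 to 3.63 CPM (UMI counts per 1000000 UMIs of the library). Fibroblast markers summed to 0.315 to 1.37 CPM with COL3A1 at 0 UMIs in all 4 libraries, endothelial markers to 0.311 to 5.40 CPM with CLDN5 at 0 and CDH5 going from 5.37 (Ctrl) to 0.315 CPM (7-day), and immune markers to 2.27 to 6.26 CPM with MS4A1 at 0. Most of the immune sum was CD68, which went from 1.53 (Ctrl) to 6.19 CPM (7-day), and its part in the results was not tested. No cell held UMIs of 2 fibroblast or 2 endothelial markers, and at most 4 cells of a library held UMIs of 2 immune markers. In all, 46 cells carried a barcode found in more than 1 library.

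The members lie in several parts of the genome (GENCODE 44, GRCh38). MMP7 (chr11:102520508-102530750), MMP10 (chr11:102770502-102780628), MMP1 (chr11:102789401-102798160) and MMP13 (chr11:102942995-102955732) lie on the minus strand in the MMP cluster of chromosome 11, which holds 9 MMP genes over 435 kb. MMP2 is at chr16:55389700-55506691, MMP9 at chr20:46008908-46016561, MMP14 at chr14:22836560-22849041, TIMP1 at chrX:47582408-47586789 and TIMP3 at chr22:32801705-32863041, all on the plus strand, and TIMP2 is at chr17:78852977-78925387 on the minus strand. On the opposite strand, SLC12A5-AS1 overlaps MMP9 and held 90 UMIs over all libraries, against 2878 of MMP9. Genes that overlap MMP2, TIMP1, TIMP2 and TIMP3 on the opposite strand held at most 5 UMIs each. On the same strand, CEP295NL overlaps TIMP2 and held 5 UMIs, against 4281 of TIMP2.

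RefSeq promoter windows on GRCh38.p14 were matched for 5 of the 10 members, namely MMP7, MMP10, MMP14, TIMP1 and TIMP3. MMP1, MMP2, MMP9, MMP13 and TIMP2 were not matched. The 250 bases before the start sites of MMP7 and MMP10 are shown because these members of 1 cluster, on 1 strand, had opposite courses under TGF-β1, as given below. Capitals mark the 2 kinds of motif found, TGAGTCA (a form of the AP-1 site) and TATAAA (a form of the TATA box). The MMP7 sequence is chr11:102530748-102530997 and the MMP10 sequence is chr11:102780629-102780878, both read 5′ to 3′ on the minus strand.
MMP7: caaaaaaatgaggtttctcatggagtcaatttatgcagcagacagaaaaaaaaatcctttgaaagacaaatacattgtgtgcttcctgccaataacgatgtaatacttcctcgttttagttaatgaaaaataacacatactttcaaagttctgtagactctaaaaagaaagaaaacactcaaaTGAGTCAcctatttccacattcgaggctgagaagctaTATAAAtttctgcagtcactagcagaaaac
MMP10: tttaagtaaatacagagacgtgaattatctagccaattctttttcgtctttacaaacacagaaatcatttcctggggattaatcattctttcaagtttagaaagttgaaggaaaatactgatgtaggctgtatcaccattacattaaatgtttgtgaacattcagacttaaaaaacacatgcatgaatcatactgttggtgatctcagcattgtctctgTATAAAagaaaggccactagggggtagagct

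MMP7 held TGAGTCA 67 bases before its start site and TATAAA 30 bases before it, and MMP10 held TATAAA 31 bases before its start site. The windows searched were of 300 bases, with 250 before and 50 after the start site. Over all 35116 RefSeq promoter windows, on either strand, TGAGTCA stood in 4.95% and TATAAA in 11.5%. The windows of MMP14, TIMP1 and TIMP3 held neither of these exact sequences, and none of the 5 held CACCTG (20.6% of all windows), GTCTAGAC (0.202%) or TGACGTCA (1.85%). Other forms of these sites were not searched. The GC content of the 300-base windows was 35.7% for MMP7 and 36.3% for MMP10. It was 55.0% for MMP14, 65.0% for TIMP1 and 72.7% for TIMP3, with a median over all windows of 58.7%. These matches describe the letters only.

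Among the MMP members, MMP7 had the highest level in Ctrl and MMP14 in every treated library. Under TGF-β1 the gelatinases MMP2 and MMP9 and the membrane-type protease MMP14 were higher, and the stromelysin MMP10 was higher mainly at 7-day. The collagenase MMP1 was higher than Ctrl beyond counting error only at 7-day, where 3 cells held 80.0% of its UMIs. MMP7 was lower, and MMP13 was not detected. TIMP1 and TIMP2 were 2.95-fold and 2.65-fold higher at 7-day than in Ctrl. The levels of each gene are shown by library in the plot of CPM.

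**Figure D1:**
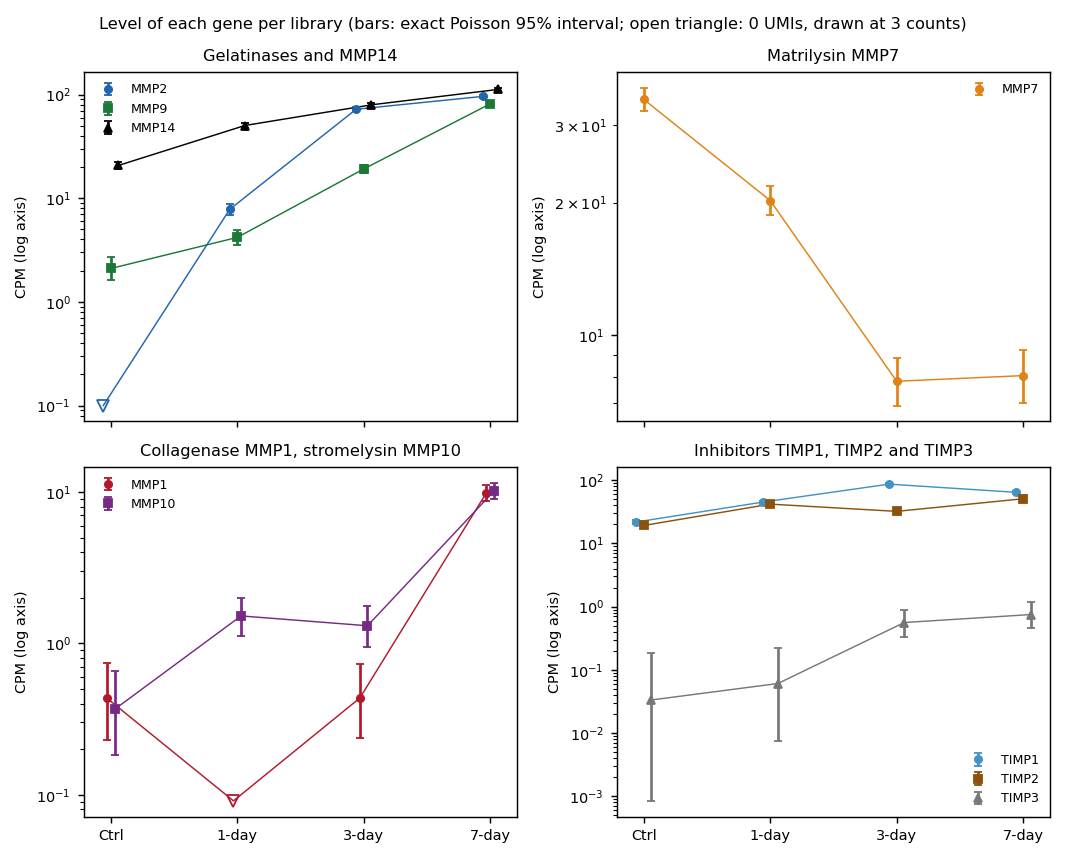
Level of each detected member in CPM (log axis, a different range in each panel) for Ctrl, 1-day, 3-day and 7-day, with bars for the exact Poisson 95% interval of counting error, and libraries with 0 UMIs drawn as open triangles at 3 counts. MMP2 went from 0 UMIs in Ctrl to 95.9 CPM at 7-day, MMP9 from 2.10 to 81.2 CPM and MMP14 from 20.7 to 112 CPM, while MMP7 went from 34.3 to 8.08 CPM.

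MMP2 (ENSG00000087245), a gelatinase that degrades type IV collagen, had 0 UMIs in Ctrl, 7.80 CPM at 1-day, 72.1 CPM at 3-day, then 95.9 CPM at 7-day. In Ctrl, the count of 0 in 29995994 UMIs had a counting interval up to 0.123 CPM, and 3 counts would be 0.100 CPM. Set against those 3 counts, MMP2 was 78.0-fold higher at 1-day, 721-fold at 3-day and 958-fold at 7-day. The lower ends of the exact intervals, which use the 0 itself, were 63.0-fold, 586-fold and 779-fold. The order Ctrl, 1-day, 3-day, 7-day had no overlap of neighbouring counting intervals, the closest pair being 3-day (69.2 to 75.1 CPM) and 7-day (92.1 to 99.7 CPM). Most of the course was passed by 3-day, which showed 75.2% of the 7-day level, against 8.14% at 1-day.

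MMP9 (ENSG00000100985), the other gelatinase, was detected in Ctrl at 2.10 CPM and measured 4.19 CPM at 1-day, 19.1 CPM at 3-day, then 81.2 CPM at 7-day. It was later than MMP2: 2.64% of its difference between Ctrl and 7-day was present at 1-day and 21.5% at 3-day. The 1-day level was 1.99-fold that of Ctrl (log2 ratio 1.00, interval 0.56 to 1.45), and the 7-day level was 38.7-fold (log2 ratio 5.27, interval 4.91 to 5.66). From 3-day to 7-day MMP9 was still 4.25-fold higher, while MMP2 was 1.33-fold higher over the same interval.

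MMP14 (ENSG00000157227), a membrane-anchored protease that activates the MMP2 precursor, had the highest level of the 7 MMP members in every treated library. It measured 20.7 CPM in Ctrl, 50.3 CPM at 1-day, 79.5 CPM at 3-day, then 112 CPM at 7-day. The 4 counting intervals did not overlap, and the ratios to Ctrl were 2.43-fold, 3.84-fold and 5.40-fold. Unlike MMP2 and MMP9, MMP14 had no step of more than 2.43-fold between neighbouring times.

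MMP7 (ENSG00000137673), or matrilysin, is a small secreted protease made chiefly by epithelial cells. Among the 7 MMP members it had the highest level in Ctrl, at 34.3 CPM (interval 32.3 to 36.5), and measured 20.2 CPM at 1-day, 7.84 CPM at 3-day, then 8.08 CPM at 7-day. The 3-day and 7-day levels differed by less than their counting intervals, and both were below 1-day, which was below Ctrl. MMP7 was 1.70-fold lower than Ctrl at 1-day, 4.38-fold lower at 3-day and 4.25-fold lower at 7-day.

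MMP10 (ENSG00000166670), a stromelysin that cleaves proteoglycans and can activate procollagenases, was near its detection limit in Ctrl with 11 UMIs (0.367 CPM). It measured 1.52 CPM at 1-day, 1.31 CPM at 3-day, then 10.1 CPM at 7-day, and the 1-day and 3-day intervals overlapped. The 7-day level was 27.6-fold that of Ctrl (log2 ratio 4.79, interval 3.92 to 5.81) and 7.75-fold that of 3-day.

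MMP1 (ENSG00000196611), the interstitial collagenase, had 13 UMIs in Ctrl (0.433 CPM), 0 at 1-day, 14 at 3-day (0.436 CPM) and 250 at 7-day (9.85 CPM). At 7-day it was 22.7-fold higher than in Ctrl (log2 ratio 4.51, interval 3.71 to 5.44). At 1-day, with its 0 UMIs set at 3 counts, it was 4.76-fold lower (log2 ratio −2.25, interval up to −1.74). Ctrl and 3-day did not differ beyond counting error. The Ctrl level rested on 4 cells, of which 1 cell held 9 of the 13 UMIs. Without that cell, the log2 ratio of 1-day, set at 3 counts, to Ctrl was −0.55 (interval up to 0.46). MMP13 (ENSG00000137745), another collagenase, had 0 UMIs in all 4 libraries, and 3 counts would correspond to 0.100, 0.0910, 0.0933 and 0.118 CPM from Ctrl to 7-day. Of the 9 MMP genes in the chromosome 11 cluster, MMP13, MMP20 and MMP27 were at 0 UMIs, and MMP3, MMP8 and MMP12 had at most 16 UMIs over all libraries.

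Among the inhibitors, TIMP1 (ENSG00000102265), a secreted inhibitor of most MMPs, measured 21.8 CPM in Ctrl, 45.0 CPM at 1-day, 86.7 CPM at 3-day, then 64.4 CPM at 7-day. Its highest level was at 3-day, and the 7-day level (interval 61.3 to 67.6) was 1.35-fold lower than that. TIMP2 (ENSG00000035862), the inhibitor that also links MMP2 to MMP14, measured 19.2, 41.9, 32.1 and 50.9 CPM in the same order. TIMP2 therefore had a lower value at 3-day than at 1-day, and its 4 counting intervals did not overlap. These intervals do not hold the spread between cells. The 10% of cells with most TIMP2 UMIs held 66.4% of them at 1-day and 48.2% at 3-day. Cells with 10 or more TIMP2 UMIs numbered 33 and 13, and their part in the difference was not tested. TIMP3 (ENSG00000100234), which is held in the extracellular matrix, had 1, 2, 18 and 19 UMIs, a level of at most 0.749 CPM, and its 3-day UMIs came from 6 cells with 11 of the 18 in 1 cell.

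A gene was called different when its CPM differed by at least 2-fold (a log2 ratio of 1 or more in size) and it had at least 50 UMIs over the 4 libraries. Of the 10 members, 8 met the UMI minimum, while MMP13 (0 UMIs) and TIMP3 (40 UMIs) did not, and MMP1 met it only through its 7-day UMIs, with 27 in the other libraries. The 3 comparisons with Ctrl share the same Ctrl library and are not independent of each other. At 1-day, 6 members were called, with MMP2, MMP10, MMP14, TIMP1 and TIMP2 higher and MMP1 lower, where 22.6% of the 14182 genes that met the UMI minimum were called, 10.9% as higher and 11.7% as lower. At 3-day, 6 members were called, with MMP2, MMP9, MMP10, MMP14 and TIMP1 higher and MMP7 lower, where 22.1% of those genes were called, 11.8% as higher and 10.3% as lower. At 7-day, all 8 that met the minimum were called, with MMP7 lower and the other 7 higher, where 23.3% of those genes were called, 13.8% as higher and 9.47% as lower. Because MMP1 met the minimum only through 7-day, its higher call there is not independent of that minimum.

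The median log2 ratio to Ctrl over these 8 members was 1.08 at 1-day, 1.89 at 3-day, then 3.47 at 7-day, beside −0.07, −0.01 and 0.07 over all genes that met the minimum. MMP1 is counted in these medians, and its 7-day values, also those against 3-day, are not independent of the UMI minimum. Between treated libraries, MMP1, MMP2 and MMP9 were called higher and MMP7 lower at 3-day than at 1-day, where 12.2% of all genes were called, 6.37% as higher and 5.81% as lower. The MMP1 call rested on 14 UMIs in 3 cells, with 7, 6 and 1 UMIs, against 0 at 1-day. MMP1, MMP9 and MMP10 were called higher at 7-day than at 3-day, where 6.07% of all genes were called, 3.79% as higher and 2.28% as lower. Between those last libraries TIMP1 (log2 ratio −0.43), MMP2 (0.41) and MMP14 (0.49) stayed within 2-fold.

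**Figure D2:**
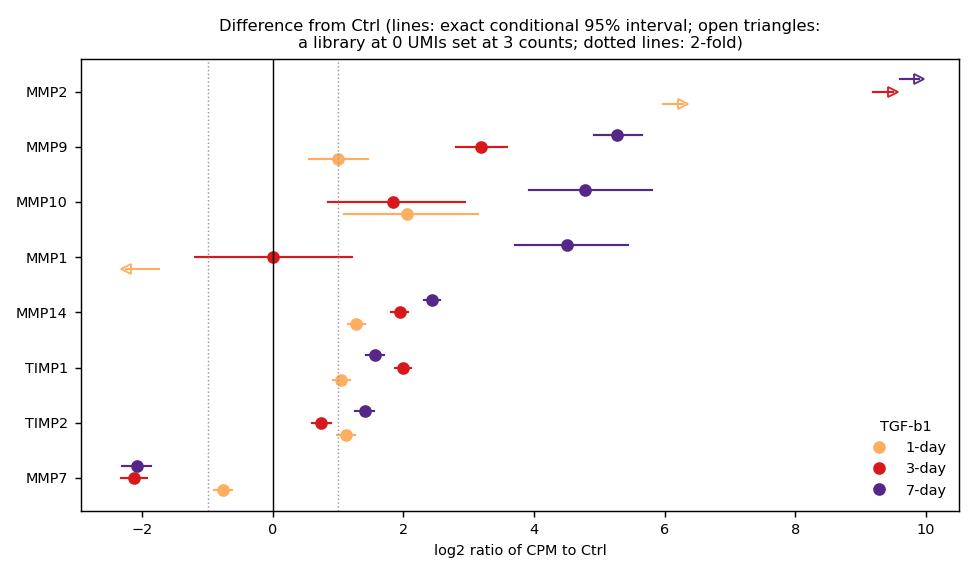
Log2 ratio of CPM to Ctrl (x axis) of the 8 members with at least 50 UMIs (y axis) at 1-day, 3-day and 7-day, with exact conditional 95% intervals as lines, open triangles where a library at 0 UMIs was set at 3 counts, and dotted lines at 2-fold. MMP7 is the only member to the left of 0 at 7-day (−2.09), and MMP2 lies farthest to the right (9.90).

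The share of cells with at least 1 UMI separated a spread over most cells from a few strong cells. MMP14 was detected in 42.6% of Ctrl cells, 71.6% at 1-day, 87.7% at 3-day, then 91.0% at 7-day. At equal depth, with cells thinned to 18000 UMIs, the shares were 28.7%, 51.4%, 66.6% and 75.4%. The order of the libraries was therefore the same after depth was equalised.

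MMP2 was detected in 0 of 933 Ctrl cells. There 3 counts would be a share of 0.322% and the interval reached 0.395%, with no limit set on cells expressing it below capture. It was detected in 12.6%, 63.7% and 77.2% of cells at 1-day, 3-day and 7-day. Thinned, these shares were 0%, 8.0%, 47.1% and 63.0%. At full depth MMP9 was found in a majority of cells only at 7-day, with 6.22%, 11.5%, 23.4% and 60.8% of cells by library, and it had a thinned share of 40.6% at 7-day (interval 36.5 to 44.9). MMP7 took the opposite course, from 34.7% of thinned Ctrl cells to 20.7%, 9.45% and 8.01%. The libraries hold no cell type that should lack these genes, so the share that free RNA could give was not measured.

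TIMP1 was detected in 26.1% of thinned Ctrl cells, 45.3% at 1-day, 67.4% at 3-day, then 60.8% at 7-day. For TIMP2 the thinned shares were 17.2%, 30.8%, 32.5% and 47.7%, so that its 3-day share was not below its 1-day share although its CPM was. MMP1 and MMP10 remained rare at 7-day, with thinned shares of 3.46% and 6.01%.

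**Figure D3:**
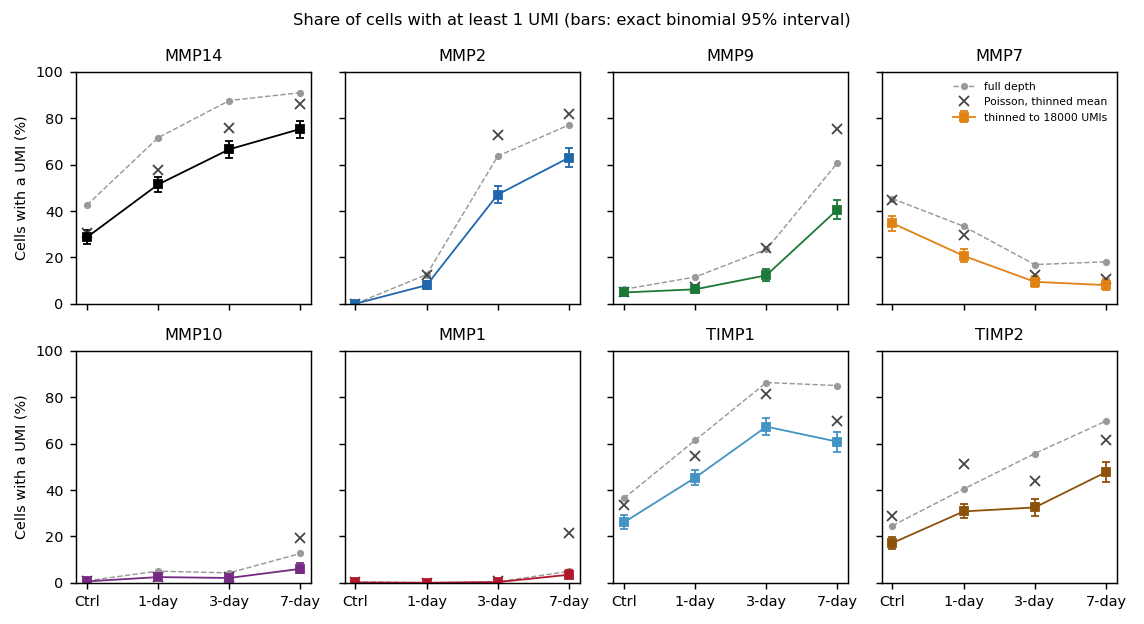
Percentage of cells with at least 1 UMI (y axis) by library for 8 members at full depth (dashed) and thinned to 18000 UMIs per cell (solid, with exact binomial 95% intervals), and the share a Poisson count of the same thinned mean would give (crosses). Thinned MMP14 shares go from 28.7% to 75.4% and MMP7 shares from 34.7% to 8.01%, and MMP1 at 7-day (3.46%) lies far under its cross (21.7%).

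A Poisson count with the same mean in every cell would have given larger shares at 7-day: 86.2% for MMP14, 82.0% for MMP2, 75.5% for MMP9, 19.2% for MMP10 and 21.7% for MMP1. The measured thinned share was below the Poisson share for each of these genes. Ranked by their UMIs of each gene, the top 10% of 7-day cells held 31.1% of the MMP14 UMIs, 32.2% of TIMP1, 39.4% of MMP2, 42.1% of TIMP2, 66.2% of MMP9 and 94.2% of MMP10. At 3-day, where MMP9 was in 23.4% of cells, 10 cells held 53.7% of its UMIs and the highest cell held 89. Without the 10 highest cells of each library, the log2 ratio of MMP9 at 3-day to Ctrl was 2.47 in place of 3.19.

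At 7-day, 51 cells held 10 or more MMP9 UMIs, compared with 8 cells at 3-day and 0 at 1-day and in Ctrl. For MMP2 such cells numbered 67 of 569 at 7-day, 78 of 705 at 3-day, 3 at 1-day and 0 in Ctrl. TIMP2 in Ctrl was more concentrated than TIMP1 at a near level, with 75.4% of its UMIs in the top 10% of cells against 54.0% for TIMP1.

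MMP1 and MMP10 at 7-day came largely from a few cells. Of the 250 MMP1 UMIs, 3 cells with 97, 57 and 46 UMIs held 80.0%, and 17 of the 28 positive cells had 1 UMI. The cell with 97 also had 51 MMP10 UMIs, the most of any cell, with 33900 UMIs in all, and it was not marked as a doublet. Among the 10 cells highest in MMP1, 1 was marked as a doublet, as was 1 of the 10 highest in MMP10. The 28 MMP1 cells included 10 with MMP10 (35.7%, against 12.7% of all 7-day cells), and they held 56.8% of the 257 MMP10 UMIs. Without the 10 cells that held most MMP1 in each library, the log2 ratio of 7-day to Ctrl was 2.90, set against 3 counts. Ctrl had only 4 cells with MMP1, so this step left it no MMP1 UMI, and 19 of the 250 7-day UMIs remained. The 2.90 therefore rests on the 3 counts put in place of Ctrl, and gives no measure against the Ctrl level itself.

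**Figure D4:**
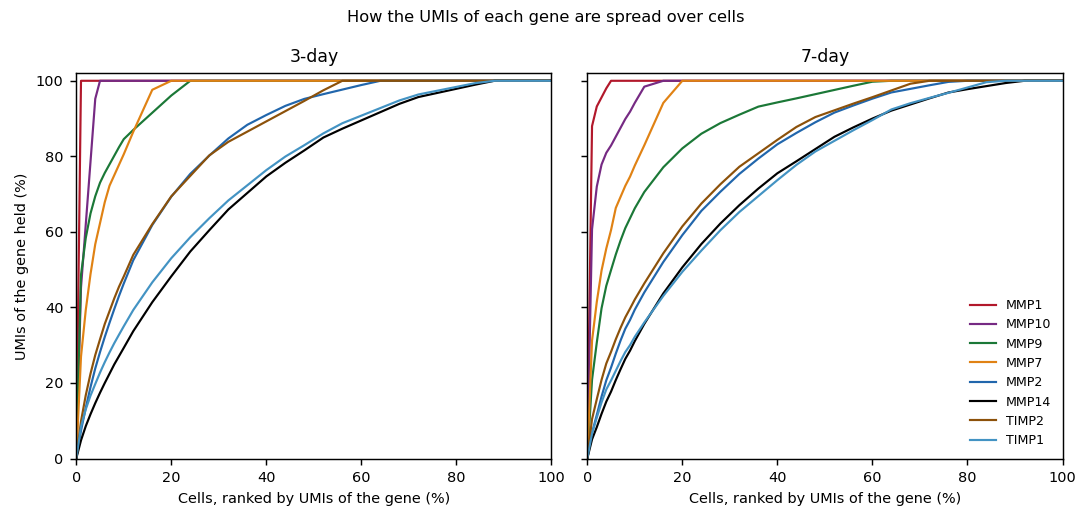
Cumulative percentage of a gene's UMIs (y axis) over cells ranked from most to fewest UMIs of that gene (x axis, % of cells) at 3-day (left) and 7-day (right). At 7-day the top 10% of cells hold 31.1% of MMP14 UMIs and 94.2% of MMP10 UMIs, and the MMP9 curve is flatter at 7-day (66.2%) than at 3-day (84.6%).

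The levels also differed by cell cycle phase within a library, as scored from S and G2/M genes. At 7-day, MMP9 measured 151 CPM in cells scored as G1 (207 cells), 53.6 CPM in S (127 cells) and 35.5 CPM in G2/M (235 cells). MMP14 measured 167, 86.4 and 77.4 CPM and MMP2 128, 76.9 and 77.8 CPM in G1, S and G2/M cells. In each of these genes the G1 level was above the other phases with no overlap of counting intervals, which do not hold the spread between cells. The 10 cells highest in MMP9 held 598 of its 2062 UMIs, and 8 of these cells were in G1.

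MMP10 was at 24.4, 1.12 and 2.49 CPM and MMP1 at 24.3, 0.186 and 2.40 CPM in 7-day cells of G1, S and G2/M. Few cells carried these values: 14 of the 28 MMP1 cells were scored as G1, and 8 of the 10 cells highest in MMP1, and likewise 8 of the 10 highest in MMP10, were in G1. TIMP2 was at 72.4, 42.1 and 37.1 CPM, whereas TIMP1 was at 67.3, 60.9 and 63.7 CPM with overlapping intervals. In Ctrl, where MMP9 was at 1.88, 2.62 and 1.89 CPM, its phases overlapped too. MMP14 was at 25.8, 20.7 and 18.2 CPM in Ctrl, and TIMP2 at 23.8, 18.5 and 17.5 CPM. For both of these genes the G1 interval lay above that of G2/M and overlapped that of S, so a higher G1 level was also seen without TGF-β1. At 3-day, MMP9 measured 34.8, 5.07 and 7.79 CPM. With G1 cells alone, and with a mitochondrial limit of 10%, all 8 members that met the UMI minimum kept their call and direction at 7-day against Ctrl. Cells of 1 library share their culture, so these phase differences were not tested.

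At later times, UMIs of more of the 7 MMP members were detected in the same cell, with other MMP genes such as MMP28 not counted. At equal depth, the mean number of MMP members detected per cell was 0.690 ± 0.723 (SD over 844 cells) in Ctrl, 0.888 ± 0.779 at 1-day, 1.38 ± 0.905 at 3-day, then 1.97 ± 1.04 at 7-day. Cells with none made up 45.1%, 33.4%, 16.4% and 7.10%, and cells with 3 or more made up 1.30%, 3.11%, 9.45% and 27.3%. Cells without any TIMP made up 63.0%, 37.6%, 20.1% and 20.6%, with no further fall from 3-day to 7-day.

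MMP14, MMP2 and TIMP2, whose proteins together activate the MMP2 precursor, were detected in the same cell in 0 of 844 thinned Ctrl cells, 1.33% at 1-day, 12.6% at 3-day, then 24.4% at 7-day (interval 20.9 to 28.2). The product of the 3 separate shares was 1.27%, 10.2% and 22.7% at 1-day, 3-day and 7-day. Joint detection was above the product at each of these times, and each product lay within the counting interval. At 3-day the product (10.20%) was near the lower end of that interval (10.15 to 15.29). At 7-day, MMP9 and MMP10 were found together in 25 of 549 thinned cells, against 13.4 from the product of their shares, and MMP9 and MMP14 in 181 against 168. Over these 549 cells of 1 library, Spearman's rho was 0.26 for MMP9 with MMP14, 0.22 for MMP9 with MMP10, 0.18 for MMP2 with MMP14 and −0.05 for MMP14 with TIMP1, values that are all low in sparse counts.

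Summed over members, the proteases measured 57.9 CPM in Ctrl, 84.0 at 1-day, 180 at 3-day, then 317 at 7-day, and the inhibitors 41.1, 87.0, 119 and 116 CPM. The UMIs of these 7 proteases per UMI of the 3 inhibitors were 1.41 in Ctrl (interval 1.31 to 1.52), 0.966 at 1-day, 1.51 at 3-day, then 2.73 at 7-day (interval 2.62 to 2.85). This order of the libraries depended on the genes counted. With the other MMP and TIMP genes of the list below added (23 MMP and 4 TIMP genes in all, MMP28 the largest addition in Ctrl), the ratio was 3.48 in Ctrl (interval 3.26 to 3.71), 2.23 at 1-day, 1.96 at 3-day, then 3.14 at 7-day (interval 3.02 to 3.28), so that Ctrl and not 7-day was the highest. Over the members in G1 cells alone it was 3.60 at 7-day against 1.48 in Ctrl, and without MMP2 it was 1.91 at 7-day against 1.41 in Ctrl. These are sums of RNA counts and give no measure of enzyme activity.

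The make-up of the sum over the 7 proteases differed between Ctrl and 7-day. MMP7 made up 59.3% of the protease UMIs in Ctrl and 2.55% at 7-day. MMP14 held 35.7% in Ctrl, 59.8% at 1-day, 44.1% at 3-day, then 35.3% at 7-day, MMP2 held 0%, 9.29%, 40.0% and 30.2%, and MMP9 held 3.62%, 4.99%, 10.6% and 25.6%. TIMP1 made up 53.1%, 51.8%, 72.6% and 55.5% of the inhibitor UMIs.

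**Figure D5:**
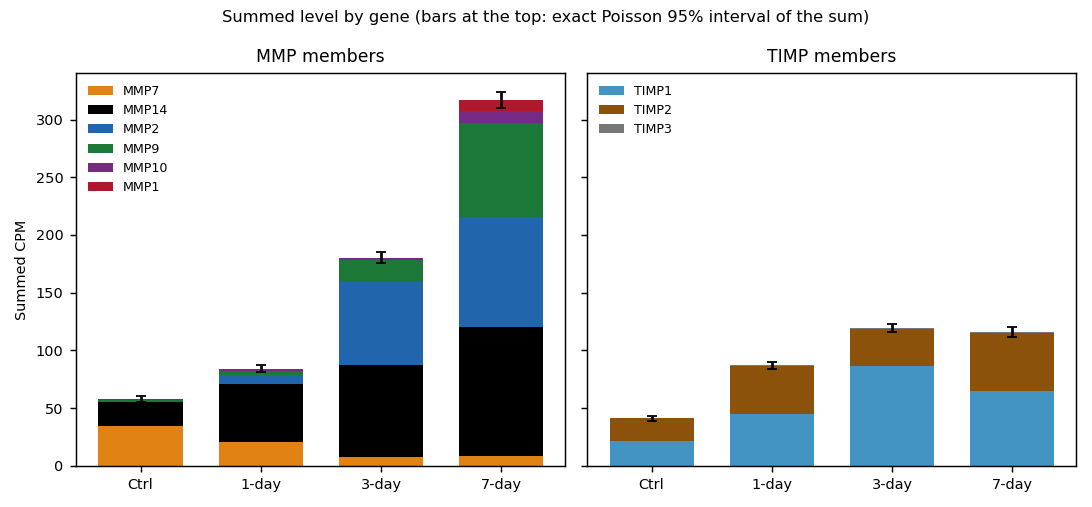
Summed CPM of the MMP members (left) and TIMP members (right) by library, stacked by gene, with exact Poisson 95% intervals of the sum. The protease sum goes from 57.9 CPM, mostly MMP7, to 317 CPM, mostly MMP14, MMP2 and MMP9, while the inhibitor sum is 119 CPM at 3-day, then 116 CPM at 7-day.

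Other genes of the pathway were read from lists, with the same rule for calls. Of 19 further metalloproteinases and inhibitors, 7 met the UMI minimum, and at 7-day against Ctrl 3 were higher (MMP11, MMP17 and RECK, a membrane-anchored MMP inhibitor) and 2 lower (MMP16 and MMP28). Few UMIs carried some of these calls: 51 at 7-day against 10 in Ctrl for MMP11, 29 against 10 for MMP17 and 11 against 40 for MMP16. MMP16 met the UMI minimum only through its Ctrl UMIs, with 3 at 1-day and 4 at 3-day, so its lower call is not independent of that minimum. The intervals of MMP17 and MMP16 reached inside 2-fold. MMP28 measured 62.6, 74.3, 25.9 and 22.3 CPM from Ctrl to 7-day, and so, like MMP7, was lower at 3-day and 7-day. Of 15 ADAM and ADAMTS proteases, 8 met the minimum, 4 were higher at 7-day (ADAM9, ADAM19, ADAMTS1 and ADAMTS6) and 0 lower. Over all genes that met the minimum, 13.8% were called higher and 9.47% lower in that comparison, which applies to each of these lists.

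Of 15 activators and cell surface partners, 14 met the minimum, 6 were higher at 7-day and 3 lower. Over all genes that met it, 13.8% were called higher and 9.47% lower. The median log2 ratio of 7-day to Ctrl was 0.12 for the further metalloproteinases and inhibitors, 1.05 for the ADAM and ADAMTS proteases and 0.61 for the activators and partners, beside 0.07 over all genes that met the minimum. FURIN, a convertase that activates the MMP14 precursor, measured 10.3, 88.1, 55.5 and 33.1 CPM, so it was highest at 1-day, before MMP14 was. CD44, a docking partner of MMP9 and MMP14, measured 47.7, 41.9, 137 and 218 CPM. ITGAV and ITGB3, subunits of an integrin that binds MMP2, were both higher at 7-day, as were ITGB1 and CD63. Their levels were far apart, with ITGAV at 248 CPM and ITGB3 at 1.97 CPM at 7-day, where ITGB3 had 50 UMIs against 0 in Ctrl. LCN2, which binds MMP9, was lower at 7-day, as were the endocytic receptor LRP1 and the tetraspanin TSPAN8. In the plasminogen system, which can activate MMP precursors, the protease PLAU measured 6.40, 8.50, 45.9 and 149 CPM and its receptor PLAUR 8.27, 15.8, 80.2 and 138 CPM.

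The genes nearest to each member in their course over the 4 libraries were sought among 13044 genes with at least 100 UMIs, by the root mean square difference of centred log2 CPM. For MMP2 the nearest was ADAM19 (0.40), which measured 0.0333, 3.40, 15.3 and 38.2 CPM, followed by MYCT1 (0.95). A library at 0 UMIs was set at 3 counts here too, which bears on MMP2 in Ctrl and MMP1 at 1-day. It also bears on RP11-702B10.2, named below beside MMP9, which had 0 CPM in Ctrl. Counts of 1, such as that of ADAM19 in Ctrl, were kept, so these distances depend on that replacement. For MMP9 the nearest were MME (0.21) and RP11-702B10.2 (0.22), and for MMP14 they were SLFN12 (0.02) and PLEKHO2 (0.05). MMP10 was nearest to PRDM1 (0.36) and CHST3 (0.49), MMP1 to LINC01483 (0.62) and IFIT2 (0.64), MMP7 to AC006273.4 (0.08) and CTC-444N24.13 (0.09), TIMP1 to KSR1 (0.06) and VCX2 (0.06), and TIMP2 to DUSP10 (0.06) and ARSG (0.07). With 4 points per gene, such nearness is a description of 4 libraries.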

How the data were processed

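The authors deposited raw UMI counts per gene and cell, 1 matrix per library, from 10x Genomics 3′ v3 libraries. The submitters' processing notes name Cell Ranger 2.0.1 and GRCh38. The annotation release is not given in the sources used here. The copies of the matrices read here ended before all listed cells, and whether the deposited matrices do so was not established. The first cells in barcode order were therefore used, which are not a random draw, and the last, incomplete cell of each was dropped.

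Cells with more than 200 genes and at most 20% mitochondrial UMIs were kept. Doublets were marked with Scrublet in scanpy 1.11.5 (40 cells, 1.27%) and kept. Phases were scored with 45 S and 54 G2/M genes. Counts were summed per library and divided by its UMI total. Intervals are exact (Poisson for levels, Clopper-Pearson for shares, conditional binomial for ratios), and a library at 0 UMIs was set at 3 counts per library in a ratio. Code was tested on simulated data. No significance test was run, as each condition is 1 library and cells are not replicates.

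The members, gene lists and comparisons were chosen with earlier results of these data known. All 10 members are named, genes of the 3 pathway lists where called at 7-day against Ctrl, and the 2 nearest genes of each member with at least 100 UMIs. FURIN, MMP28, CD44, ITGAV, ITGB3 and ADAM19 are given with values from those lists, and MMP11, MMP16 and MMP17 with UMI counts. MMP3, MMP8, MMP12, MMP20 and MMP27 were not called and are named as genes of the chromosome 11 cluster. PLAU and PLAUR are given with values from a separate list of the plasminogen system. One listed gene is not reported here. Promoters are from RefSeq (GRCh38.p14) and positions from GENCODE 44.

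Alternatives changed the mitochondrial limit (10% or none), the doublets, the phases, the part of the cells, the depth, the scaling, the UMI minimum and the fold needed for a call, and left out the 10 cells highest in each gene. The ratio of MMP to TIMP UMIs under other settings and with other genes, and MMP1 without its highest Ctrl cell, were added after seeing the data.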

Additional observations from a re-analysis of the deposited data

Results flagged for a closer look

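MMP1 lay on opposite sides of Ctrl at different times: its log2 ratio to Ctrl was −2.25 at 1-day, with 0 UMIs set at 3 counts, and 4.51 at 7-day. The difference between these effects was not tested, since each time is 1 library and both are set against the same Ctrl library. The Ctrl level rested on 13 UMIs in 4 cells, and 3 cells held 80.0% of the 7-day UMIs. The part that these cells had in the result was not tested beyond leaving them out. Without the Ctrl cell with most MMP1 UMIs, the log2 ratio at 1-day was −0.55, with an interval up to 0.46. In that setting 1-day was not lower than Ctrl beyond counting error.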

How the results depend on the processing

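No paired analysis was possible because the labels give no replicate numbers and there is only 1 library of each condition. For the same reason no replicate could be left out. Over the alternatives, the number of members called ranged from 4 to 8 at 1-day, 5 to 7 at 3-day and 6 to 9 at 7-day against Ctrl, 3 to 6 for 3-day against 1-day and 1 to 4 for 7-day against 3-day. The last gave 1 with at least 500 UMIs required, which leaves fewer genes tested, in place of 3. Shares of all genes called under these alternatives are not given here, so these counts have no background beside them. The lower call of MMP1 at 1-day was lost with a mitochondrial limit of 10% (−0.62), and in the first part of the cells, when thinned, and without its 10 highest cells no ratio could be given because both libraries were at or under 3 counts. The 7-day log2 ratio of MMP1 ranged from 2.90 without its 10 highest cells to 7.69 when thinned, where Ctrl had 1 UMI. The 2.90 was set against 3 counts, because leaving out 10 cells left Ctrl with no MMP1 UMI. At 1-day, MMP9 was called in 5 alternatives, among them other size factors (1.08) and G1 cells (1.05), TIMP1 was not called when thinned (0.96), and TIMP2 was not called in G1 cells (0.94) or as a mean over cells (0.97). MMP1 at 3-day was called with a mitochondrial limit of 10% (1.51) and when thinned (2.64), and TIMP1 was called for 3-day against 1-day in G1 cells (1.01) and when thinned (1.09). None of the called ratios reversed. Ratios within 2-fold that changed sign were MMP1 at 3-day against Ctrl, MMP10 at 3-day against 1-day and MMP7 at 7-day against 3-day, and TIMP3, which was under the UMI minimum, also changed sign. The cause was not tested.

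The MMP UMIs per TIMP UMI at 1-day were 0.876 without MMP2. At 3-day they were 1.40 without the 10 cells with most MMP UMIs, 1.38 thinned, 1.72 in G1 cells, 0.906 without MMP2 and 1.35 without MMP9. At 7-day they were 2.49, 2.60, 3.60, 1.91 and 2.03 under the same settings. With the other listed MMP and TIMP genes the ratio was 3.48 in Ctrl, 2.23 at 1-day, 1.96 at 3-day, then 3.14 at 7-day, which turned the order of Ctrl and 7-day around. Depth limits what can be said of MMP13 and TIMP3, and of MMP1 before 7-day.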
